A study of Mus musculus with 369 samples.

Results

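The tetraspanins are a family of small membrane proteins, and 10 of their genes were followed in single mouse microglia: Cd9, Cd63, Cd81, Cd82, Cd53, Cd37, Cd151, Tspan3, Tspan4 and Tspan7. They were taken by symbol from a table of 23337 genes, and all 10 were present and passed the minimum level used for the comparisons. The table holds 21 further genes of the family, which are described as a group, with those called between gates also named. The cells were microglia, the resident macrophages of the brain, from whole brains of male mice of the C57BL6J strain at postnatal day 7. The mice were wild type or Trem2 knockout, which lack a lipid-binding surface receptor of microglia. Within each genotype, live CD11b-positive cells of low CD45 are called ungated, and cells sorted in addition for surface Gpnmb and Clec7a are called gated. All 4 groups thus share the CD45 and CD11b sort, the age, the sex and the strain. How the knockout allele was built is not known from the labels.

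Tetraspanins cross the membrane several times and gather partner proteins, such as integrins and immunoglobulin-family proteins, into small membrane domains. Cd9 and Cd81 are close relatives that sit mainly at the cell surface, while Cd63 is typical of late endosomes, lysosomes and the vesicles released from them. Cd53 and Cd37 are largely restricted to blood-derived and immune cells. Tetraspanins are widely used as markers of extracellular vesicles, and macrophages express many of them.

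The starts of 4 genes are shown because they are the pair that differed most between gates (Cd9 and Cd63) and the pair of abundant members that differed by less than 2-fold (Cd81 and Cd53). All 10 members matched RefSeq promoter windows (assembly GRCm38, the same build as mm10), with 15 windows in all, and the windows of these 4 genes cover the 250 bases before the RefSeq start. Each is written 5′ to 3′ on the strand of its gene. Where GENCODE annotates bases of the window as an exon of that gene, the sequence ends before the first of them. Capitals mark GAGGAA, the core recognised by the macrophage factor PU.1, or GGGCGG, a GC box, on either strand.
Cd9, chr6:125494792-125495010, minus strand: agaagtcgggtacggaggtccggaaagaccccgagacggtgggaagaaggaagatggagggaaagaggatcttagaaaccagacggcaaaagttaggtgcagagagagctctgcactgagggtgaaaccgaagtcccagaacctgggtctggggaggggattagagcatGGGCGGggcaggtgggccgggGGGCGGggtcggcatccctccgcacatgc
Cd63, chr10:128909095-128909344, plus strand: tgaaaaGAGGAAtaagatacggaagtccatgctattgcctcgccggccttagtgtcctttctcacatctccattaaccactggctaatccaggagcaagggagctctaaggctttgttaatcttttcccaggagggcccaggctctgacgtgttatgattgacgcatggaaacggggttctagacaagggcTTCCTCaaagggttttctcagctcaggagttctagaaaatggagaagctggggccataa
Cd81, chr7:143052500-143052738, plus strand: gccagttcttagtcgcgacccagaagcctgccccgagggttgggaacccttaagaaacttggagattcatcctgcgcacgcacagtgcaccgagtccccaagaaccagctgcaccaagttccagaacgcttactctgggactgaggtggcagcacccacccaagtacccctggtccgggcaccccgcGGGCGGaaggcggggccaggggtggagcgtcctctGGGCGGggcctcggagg
Cd53, chr3:106790150-106790399, minus strand: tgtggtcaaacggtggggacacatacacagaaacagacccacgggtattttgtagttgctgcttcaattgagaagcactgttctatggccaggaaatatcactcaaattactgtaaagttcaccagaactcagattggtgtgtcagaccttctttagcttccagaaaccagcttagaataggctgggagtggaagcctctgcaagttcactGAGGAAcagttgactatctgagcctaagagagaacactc

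The windows of Cd9 and Cd63, the pair that was higher in gated cells, share none of the motifs searched. The Cd9 window had 61.6% G and C and 16 CG pairs, and the Cd63 window had 48.8% and 6, against medians of 52.4% and 6 over 32851 windows of the same length. Cd9 held 2 GC boxes and Cd81 held 3, the last of which runs into its first exon and is not printed, and such a box lay in 32.7% of all windows. Cd63 held 2 and Cd53 held 1 match to GAGGAA, which lay in 23.3% of all windows. The other motifs searched on both strands in the full windows were CACGTG (an E-box, in 6.02% of all windows), TCANGTG (which can overlap it, in 12.2%) and TGANTCA (AP-1, in 6.75%). None of them was found in these 4 windows, while Cd37 held 1 match each to CACGTG and TCANGTG, which overlap. The GC box was added to the search after the windows were seen, and a match is a description of letters, not of binding. The RefSeq start used for Cd63 lies inside the longer gene model that GENCODE gives.

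The quality criteria of the submitters left 334 cells, after 12 wild-type ungated, 3 wild-type gated, 3 knockout ungated and 17 knockout gated cells had failed them. These were 78, 90, 90 and 76 cells in the same order of groups. The cells of a group were all on 1 plate and are tied to no named animal, so a group is 1 sample. Hence no test between groups was possible, and no difference below was checked in a replicate. Plate effects cannot be told apart from those of genotype and gate. Gene counts per passing cell ranged from 157653 to 1051282. The median number of detected genes was 2607.5, 3162.5, 2184 and 3995 in the 4 groups in the order just given, and the median gene count per spike-in count was 24.9, 39.8, 18.1 and 53.7. Trem2 was at 1115 and 1604 CPM (counts scaled to a common library size) in wild-type ungated and gated cells and at 229 and 413 CPM in the knockout groups, so the labels' genotypes were matched by level but Trem2 RNA remained. The sort markers Gpnmb and Clec7a were higher in both gated groups, as the gate chose. Gpnmb was at 216, 1697, 85.2 and 4233 CPM and Clec7a at 53.5, 346, 40.9 and 594 CPM in the same order of groups. The gated groups were unlike in these markers. Gpnmb had counts in 74.4% of wild-type and 94.7% of knockout gated cells, and Clec7a in 75.6% and 92.1%. The summed level of the 9 microglia markers was 45073, 30619, 44472 and 22741 CPM in the same order, lower in both gated groups. Of other cell types, 8 lymphocyte markers summed to 80.2 to 148 CPM, 12 of the oligodendrocyte lineage to 98.3 to 161, 7 of platelets to 57.6 to 108, 8 of astrocytes to 30.7 to 71.1, 9 of endothelium to 2.77 to 36.2, 9 of neurons to 0 to 28.2 and 8 of neutrophils and monocytes to 1.64 to 4.55 CPM. Cldn5 of endothelium, Snap25 of neurons and Cd3e of T cells were at 0 in every group, but other members of these lists had counts. In the same order of groups, 7, 7, 6 and 7 of the 8 lymphocyte markers were at 0. For the 9 neuron markers these numbers were 6, 7, 5 and 9, and for the 9 of endothelium 7, 5, 7 and 6. They were 9, 6, 6 and 7 for the 12 of the oligodendrocyte lineage. Of the 8 astrocyte markers 7, 1, 3 and 0 were at 0, fewer in gated than in ungated cells of each genotype.

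Levels in CPM are the counts of a gene summed over the passing cells of a group, divided by the sum of all gene counts. Their exact 95% intervals cover counting error only, since PCR copies carried no molecular identifiers and are not separate molecules. A difference is the log2 ratio of 2 levels after adding 1 CPM to each, which understates differences of scarce genes. A gene was called where this ratio reached 2-fold and the mean CPM per cell went in the same direction. This is a rule of size, not a test.

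In ungated cells of both genotypes Cd81 was the most abundant member, and Cd53 and Cd9 came next. Cd81, a partner of many receptors at the surface, made up 42.2% of all tetraspanin counts in wild-type ungated and 39.9% in knockout ungated cells. Divided by exon length, Cd81 stood at 1100 CPM per kilobase in wild-type ungated cells, Cd53 at 643, Cd9 at 432 and Cd63 at 166. In knockout ungated cells Cd53 was at 635 and Cd9 at 616 CPM per kilobase, an order that is reversed without the division by length. In wild-type ungated cells these 4 were followed by Cd37 at 93.1, Tspan4 at 75, Tspan3 at 56.5, Cd82 at 33.6, Tspan7 at 29 and Cd151 at 8.98 CPM per kilobase. The interquartile ranges of the cells overlapped for every pair of neighbours in the wild-type order. In gated cells Cd9 took the first place by this measure, at 1108 CPM per kilobase in wild-type and 2071 in knockout cells, ahead of Cd81 at 791 and 882. Without the division by length, Cd81 and Cd9 were about equal in wild-type gated cells, at 2277 and 2264 CPM. In knockout gated cells Cd9 was first either way, at 4234 CPM against 2540 CPM. In knockout gated cells the interquartile range of the cells for Cd9 lay wholly above that for Cd81, whereas in wild-type gated cells both ranges overlapped.

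The comparison of gates set microglia sorted for Gpnmb and Clec7a against ungated microglia of the same genotype. Cd9 and Cd63 were both more than 2-fold higher in gated cells of either genotype, and the abundant members Cd81, Cd53 and Cd37 were under 2-fold apart. Of the 10 members, 2 were called higher and 0 lower in wild-type gated cells, where 15.2% of all 10554 genes measured were called higher and 19.9% lower. In knockout gated cells 2 were called higher and 1 lower, against a background of 12.4% higher and 22% lower. Members were therefore called higher about as often as other genes, and what follows concerns which members they were. The median log2 difference of the members was 0.02 in wild-type and -0.05 in knockout cells, beside -0.12 and -0.26 over all genes measured.

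**Figure D1:**
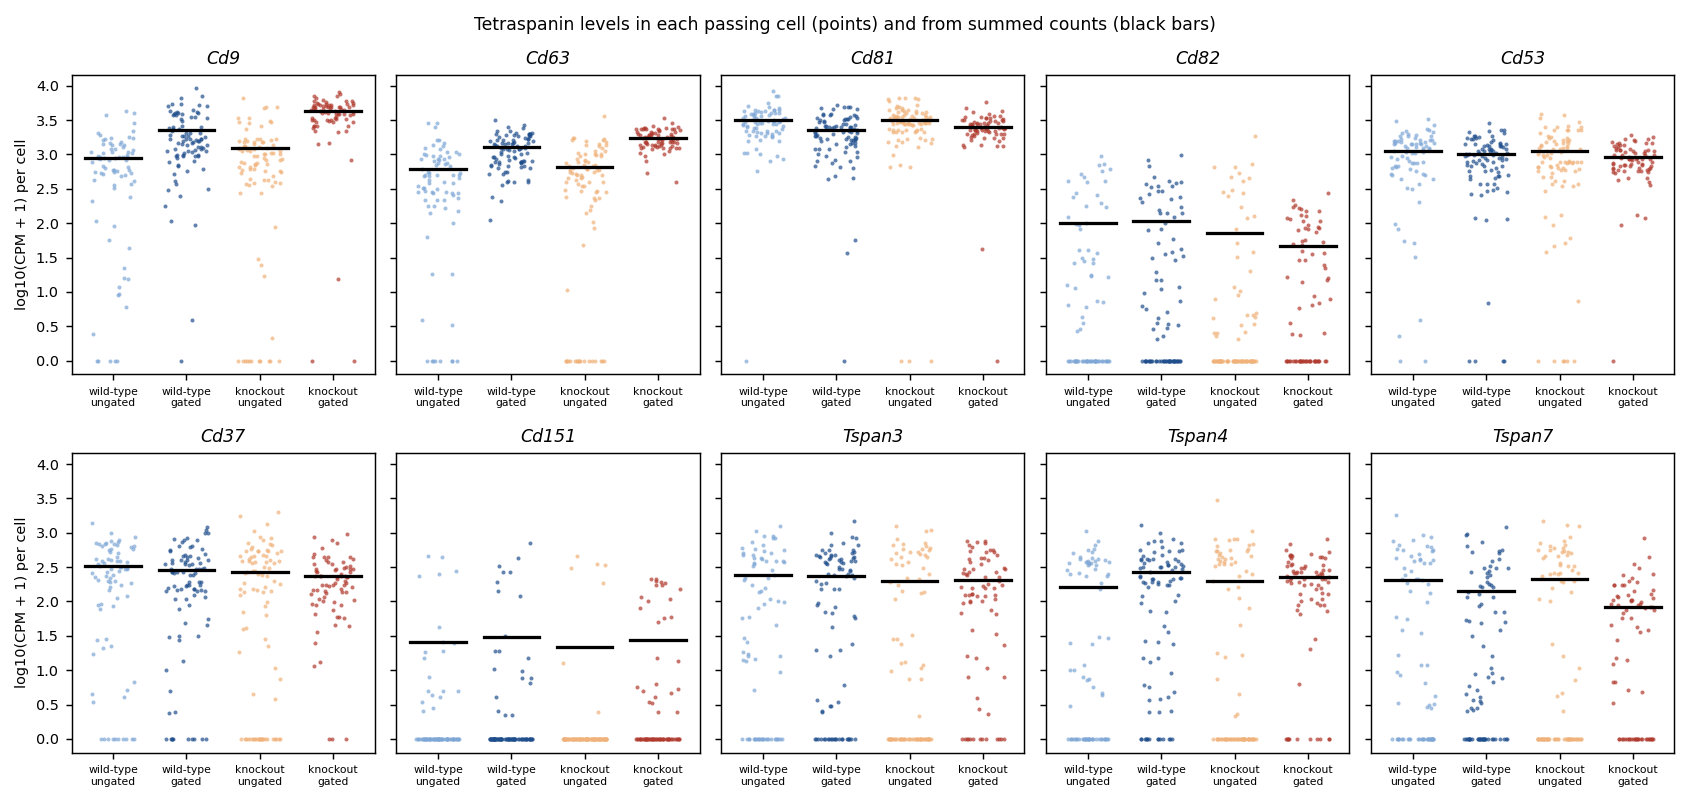
Level of each of the 10 tetraspanin genes in each passing cell, as log10(CPM + 1), in the 4 groups; points are cells and black bars are levels from summed counts. For Cd9 the bars lie at 883, 2264, 1259 and 4234 CPM from left to right, while for Cd53 they lie between 915 and 1120 CPM.

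Cd9, a surface tetraspanin that associates with integrins, had the highest difference of all members. It had 883 CPM (interval 873 to 892) in ungated and 2264 CPM (2252 to 2277) in gated cells of wild-type brains. In knockout brains the level was 1259 CPM (1250 to 1268) in ungated and 4234 CPM (4216 to 4252) in gated cells. Both gated groups were thus above both ungated groups, and the knockout gated group was highest. The gate difference was 2.56-fold (log2 1.36) in wild-type and 3.36-fold (log2 1.75) in knockout cells, higher than in 89% and 94.0% of all genes measured.

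Single cells overlapped between gates in wild-type brains and separated more in knockout brains. The median cell had 797 CPM of Cd9 in wild-type ungated and 1621 CPM in wild-type gated cells, and the interquartile ranges ran from 335 to 1194 and from 971 to 3225 CPM. In knockout brains the medians were 838 and 4250 CPM, and the interquartile ranges ran from 387 to 1486 and from 3162 to 5164 CPM. These ranges therefore overlapped in wild-type cells and did not in knockout cells. The highest cells reached 4341, 9224, 6655 and 8027 CPM in the 4 groups. No more than 8.22% of the Cd9 counts of a group came from 1 cell.

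Cd63, a tetraspanin of late endosomes and lysosomes, followed the same order of groups with smaller differences. It was at 610 CPM (602 to 618) in ungated and 1270 CPM (1260 to 1279) in gated wild-type cells. In knockout brains its level was 657 CPM (651 to 664) in ungated and 1754 CPM (1743 to 1766) in gated cells. The ungated groups lay close together, and both gated groups were above them. The gate difference was 2.08-fold (log2 1.06) in wild-type and 2.67-fold (log2 1.41) in knockout cells. The median cell went from 443 to 1194 CPM in wild-type and from 496 to 1702 CPM in knockout cells. The lowest gated cell still had 111 CPM in wild-type and 401 CPM in knockout brains, whereas 8 wild-type and 18 knockout ungated cells had 0 counts of Cd63.

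With each cell thinned to 100000 gene counts, the share of cells with Cd63 was 87.2% (77.7 to 93.7) in wild-type ungated and 100% (96.0 to 100) in wild-type gated cells. The knockout shares were 80% (70.2 to 87.7) without and 100% (95.3 to 100) with the gate. For Cd9 the shares were 87.2% (77.7 to 93.7), 97.8% (92.2 to 99.7), 86.7% (77.9 to 92.9) and 97.4% (90.8 to 99.7) in the order of the groups above. Without thinning, the Cd63 shares were 89.7%, 100%, 80% and 100%, and the Cd9 shares 93.6%, 98.9%, 87.8% and 97.4%. Both genes were thus found in most ungated cells already, and the gate difference lay mainly in the level per cell.

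The size of the Cd63 difference in wild-type cells rested partly on which cells entered. Without cells that held a count of the cell-cycle genes Mki67 or Top2a, its log2 difference was 0.81, and with cells matched on the number of detected genes it was 0.99, both short of 2-fold. Cd9 stayed past 2-fold in both genotypes under all 12 settings tried, from 1.13 to 1.83 in wild-type and from 1.57 to 3.08 in knockout cells. In knockout cells Cd63 did as well, from 1.25 to 2.75.

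Markers of border-associated macrophages, the macrophages of the meninges and vessel walls, were higher with the gate: 9 of 10 were called higher in each genotype. Their summed level was 843 and 902 CPM in wild-type and knockout ungated cells and 2108 and 2089 CPM in the gated groups, with F13a1 and Cd209f at 0 in both ungated groups and at or above 1 count in both gated groups. Cells with at least 2 of 7 such markers numbered 9 of 78, 29 of 90, 13 of 90 and 52 of 76 in the order of the groups above. Without them the Cd9 difference was as large, at log2 1.44 in wild-type and 1.94 in knockout cells, and that of Cd63 was 1.07 and 1.71. Cd9 was at 808, 1943, 1997 and 4200 CPM in cells with such markers and at 893, 2424, 1119 and 4301 CPM in the others. Cd63 was at 666, 1274, 1128 and 1699 CPM with them and at 601, 1268, 568 and 1864 CPM without. Both genes were thus higher in the 13 marked knockout ungated cells than in the 77 others. The knockout difference without marked cells rests on 24 gated cells. The number of detected genes and the gene counts per spike-in were also higher in gated cells, and their part in the levels was not tested beyond the matched cells above. Microglia markers moved the other way: 3 of 9 were called lower in wild-type and 6 of 9 in knockout gated cells, none higher, with medians of -0.52 and -1.16. Their part in the Cd9 and Cd63 differences was not tested.

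**Figure D2:**
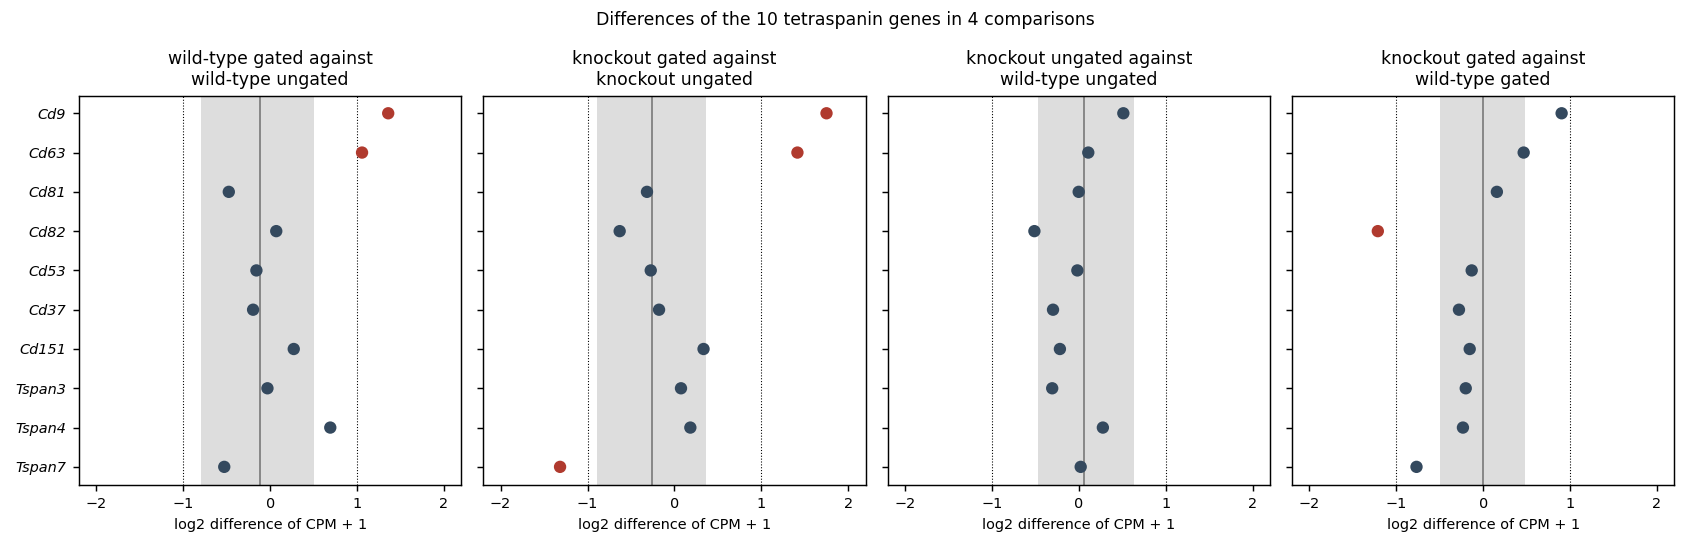
Log2 difference of each of the 10 members (points, red where called by the rule of size) in the 4 comparisons; grey bands are the interquartile range of all genes measured, grey lines are their medians, and dotted lines mark 2-fold. Cd9 and Cd63 are right of the dotted line in both gate comparisons, Tspan7 is left of it in knockout cells, and Cd82 is left of it between the gated groups.

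The 8 other members were all under 2-fold apart between gates in wild-type cells, from -0.53 for Tspan7 to 0.69 for Tspan4. In knockout cells 7 of the 8 were, from -0.63 for Cd82 to 0.33 for Cd151, and Tspan7 was the exception. Their median difference was -0.09 in wild-type and -0.23 in knockout cells.

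Cd81 was at 3167 CPM (3150 to 3185) in ungated and 2277 CPM (2265 to 2290) in gated wild-type cells. In knockout brains its level was 3164 CPM (3149 to 3178) in ungated and 2540 CPM (2526 to 2554) in gated cells. The log2 gate differences were -0.48 and -0.32, opposite in sign to those of its close relative Cd9. Its share of cells after thinning was between 96.7% and 98.9% in every group. As a share of all tetraspanin counts, Cd81 went from 42.2% to 26.9% with the gate in wild-type and from 39.9% to 23.5% in knockout cells, while Cd9 went from 11.8% to 26.8% and from 15.9% to 39.1%. The summed level of all 31 tetraspanin genes was 7511, 8457, 7919 and 10821 CPM in the 4 groups, so these shares are shares of different totals.

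Cd53, a tetraspanin of immune cells, was at 1120 CPM (1109 to 1130), 1003 CPM (995 to 1012), 1106 CPM (1098 to 1115) and 915 CPM (907 to 924) in the order of the groups above. Its 4 levels were the closest together of the abundant members, with gate differences of -0.16 and -0.27. Cd37, also of immune cells, was at 328, 286, 267 and 236 CPM, with gate differences of -0.20 and -0.18. The interquartile ranges overlapped among all 4 groups for both genes.

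Tspan3, a widely expressed member, was at 241, 236, 195 and 205 CPM, with gate differences of -0.03 and 0.07. Tspan4, which is known for its part in the migrasomes left behind by moving cells, was at 163, 264, 198 and 225 CPM. Its gate difference was 0.69 in wild-type and 0.18 in knockout cells, short of 2-fold in both. Its share of cells after thinning was 52.6% (40.9 to 64) and 75.6% (65.4 to 84) in wild-type ungated and gated cells, and 43.3% (32.9 to 54.2) and 84.2% (74 to 91.6) in knockout cells. Without thinning the shares were 59%, 84.4%, 48.9% and 85.5%. The cells with counts were therefore more in gated groups, while the summed level differed little in knockout brains. In knockout cells this was not particular to Tspan4. There the thinned share went from 47.8% to 76.3% with the gate for Tspan3 and from 72.2% to 94.7% for Cd37. In wild-type cells it was 66.7% and 67.8% for Tspan3 and 82.1% and 84.4% for Cd37. The median number of detected genes was also higher with the knockout gate, at 3995 against 2184, and its part in the shares was not tested. Cells with border-associated macrophage markers had 208, 347, 404 and 240 CPM of Tspan4 in the order of the groups above. The other cells had 157, 223, 159 and 194 CPM.

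Cd151, a partner of laminin-binding integrins, was the scarcest member, at 24.6, 29.9, 21.0 and 26.8 CPM. It was detected after thinning in 17.9%, 14.4%, 6.67% and 27.6% of cells, and a single cell held 34.5% of its counts in wild-type ungated cells. Its log2 gate differences of 0.27 and 0.33 were -0.82 and 2.11 in cells matched on detected genes, so no direction is given for it. Cd82, a surface and endosomal member, was at 101, 106, 70.5 and 45.2 CPM, with gate differences of 0.07 and -0.63. A single cell held 24.2% of its counts in knockout ungated cells.

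Tspan7 was the member that was lower in knockout gated cells. Its level was 205 CPM (200 to 209) in wild-type ungated, 142 CPM (139 to 145) in wild-type gated, 208 CPM (204 to 212) in knockout ungated and 82.9 CPM (80.4 to 85.5) in knockout gated cells. Both ungated groups were close together, and both gated groups were below them, the knockout group most. The gate difference was 2.49-fold lower (log2 -1.32) in knockout cells and -0.53 in wild-type cells. The share of cells with Tspan7 after thinning went the other way, from 46.7% (36.1 to 57.5) in knockout ungated to 60.5% (48.6 to 71.6) in knockout gated cells, and from 50% to 65.8% without thinning. The upper quartile of the cells was 329 CPM in knockout ungated and 112 CPM in knockout gated cells. The lower summed level thus came with fewer cells at high levels, not with fewer cells that had the gene, and no order is read from the shares. Scaled on spike-ins, the difference was 0.01, beside an all-gene median of 0.98.

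**Figure D3:**
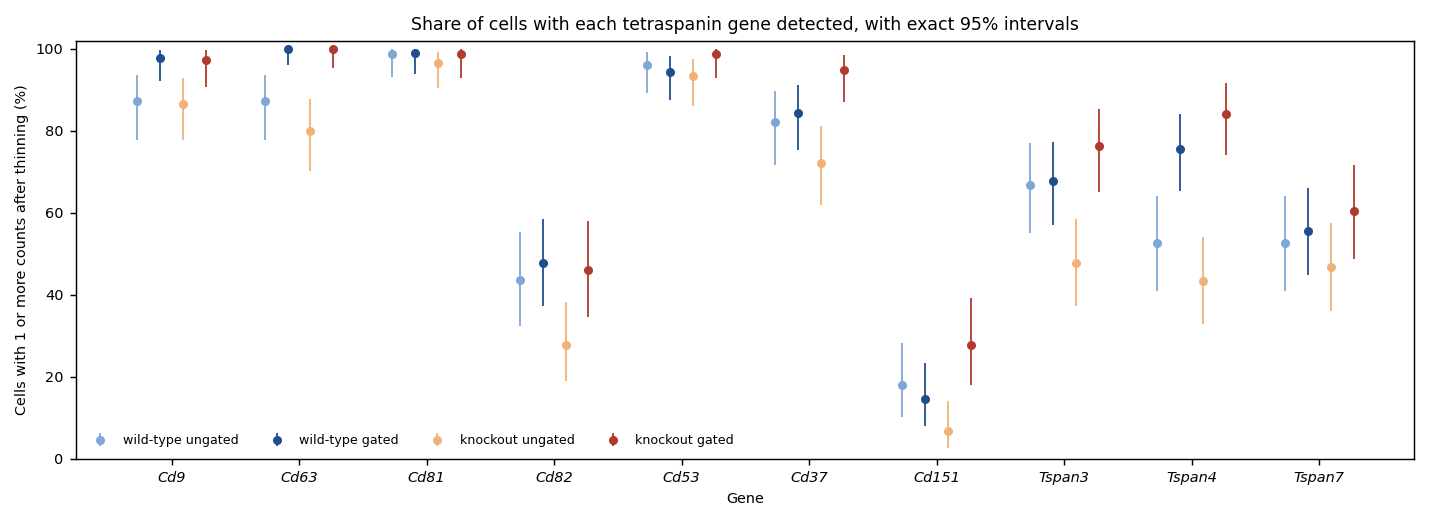
Share of cells with at least 1 count of each gene after thinning to 100000 gene counts, in the 4 groups, with exact 95% intervals that cover counting error only. Cd81 and Cd53 are above 90% in every group, Cd63 reaches 100% in both gated groups, and Cd151 stays under 30%.

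The comparison of genotypes asked how cells labelled as lacking Trem2 differ from wild-type cells of the same gate. In ungated cells 0 of 10 members were called, against 29.8% of all genes measured. The member differences ran from -0.51 for Cd82 to 0.51 for Cd9, with a median of -0.01 beside 0.05 over all genes measured. Cd63 differed by 0.11, Cd81 by 0.00 and Cd53 by -0.02.

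Between the gated groups 1 member was called, Cd82, which was lower, against a background of 23.5%. Cd9 was 1.87-fold higher (log2 0.90) in knockout than in wild-type gated cells, just under the 2-fold rule, and Cd63 was 1.38-fold higher (log2 0.47). The median of the members was -0.18, beside 0.00 over all genes measured. The sort marker Gpnmb also differed, at 1697 CPM in wild-type and 4233 CPM in knockout gated cells. Its part in the Cd9 and Cd63 differences was not tested. The median cell of the knockout gated group had 4250 CPM of Cd9 against 1621 CPM in the wild-type gated group, and the interquartile ranges, 3162 to 5164 and 971 to 3225 CPM, met only at their edges.

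Cd82 was 2.32-fold lower (log2 -1.21) in knockout gated cells, at 45.2 CPM (43.3 to 47) against 106 CPM (103 to 109). The share of cells with Cd82 was about the same, at 46.1% (34.5 to 57.9) and 47.8% (37.1 to 58.6) after thinning, or 60.5% and 58.9% without. The upper quartile of the cells was 80 CPM in knockout and 135 CPM in wild-type gated cells, and the highest cells were at 272 and 977 CPM. Without cells with border-associated macrophage markers the difference was -0.64, which is no longer 2-fold. In wild-type gated cells, Cd82 was at 152 CPM in the 29 cells with such markers and at 83.3 CPM in the 61 others. In the knockout gated group these values were 41.3 CPM in 52 cells and 52.9 CPM in 24 cells, so the genotypes were closer together in cells without the markers.

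The gate and genotype comparisons share groups, since each group enters one comparison of each kind, so their values are set side by side only. The gate difference was larger in knockout than in wild-type cells by 0.39 for Cd9 and by 0.36 for Cd63, and with 1 sample per group these differences could not be tested. For 67.2% and 66.1% of all genes measured the same quantity was lower. Cd53 and Cd37 had quantities of -0.12 and 0.02.

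**Figure D4:**
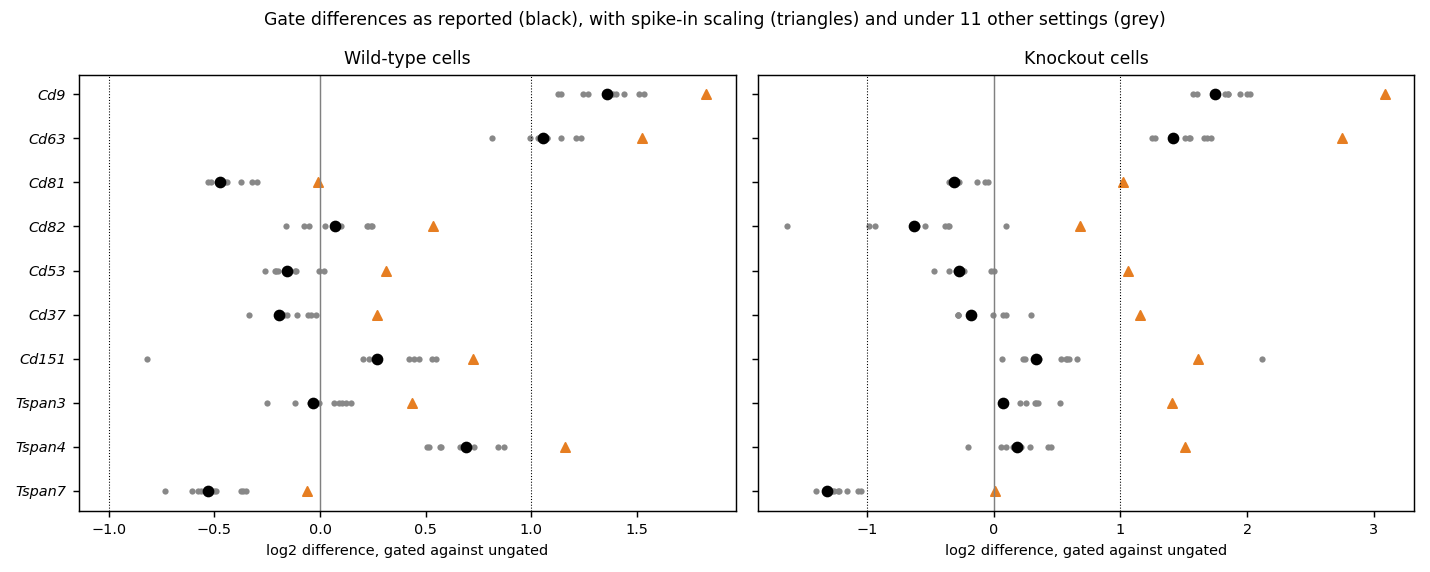
Gate differences (log2, gated against ungated) of the 10 members as reported (black), with scaling on spike-ins (orange triangles) and under 11 other settings (grey), with dotted lines at 2-fold. Spike-in scaling moves all members to the right, and Cd9 lies past 2-fold under every setting shown in both genotypes.

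How the groups are scaled sets the level that a difference of 0 stands for. Scaling on spike-ins moved the median of the genes measured by 0.42 in wild-type and 1.24 in knockout cells for the gate, and by -0.44 in ungated and 0.35 in gated cells for the genotype. Of the genes called, the share called higher went from 43.3% to 66.9% and from 36% to 92% for the gates and from 55.5% to 30.0% and from 48.5% to 70.7% for the genotypes, and trimmed-mean factors moved the knockout gate to 50.9%. Relative to that median, Cd9 was 1.48 higher in wild-type gated and 2.01 higher in knockout gated cells, or 1.53 and 2.1 with spike-ins. Cd63 was 1.18 and 1.67 higher, or 1.23 and 1.77. Cd53 was at -0.04 and -0.02, or 0.02 and 0.08 with spike-ins, and Cd81 was at -0.35 and -0.06, or -0.30 and 0.04. A scaling factor of a group moves a gene and the median by nearly the same amount. These values with and without spike-ins are thus close by construction, and their closeness is no check. On the spike-in scale itself Cd81 was 0.01 lower in wild-type and 1.02 higher in knockout gated cells. Whether Cd81 and Cd53 were level is therefore a statement about their share of the RNA, not about the amount per cell.

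Cd9 and Cd63 varied together among the cells of each group. Spearman's correlation between them, in thinned cells, was 0.55 over 78 wild-type ungated, 0.50 over 90 wild-type gated, 0.51 over 90 knockout ungated and 0.32 over 76 knockout gated cells. Cells of a group share their plate and differ in depth before thinning, in detected genes and in gene counts per spike-in count. The correlation of Cd9 with detected genes was 0.00, 0.23, 0.37 and 0.39 in the same order, and that of Cd63 with detected genes was 0.21, 0.10, 0.28 and 0.14. With gene counts per spike-in count it was 0.24, 0.44, 0.35 and 0.43 for Cd9 and 0.30, 0.42, 0.41 and 0.07 for Cd63, so in knockout gated cells Cd9 was closer to this measure than to Cd63. The correlation of Cd9 with its relative Cd81 was -0.10, 0.30, -0.12 and 0.24, smaller in size than with Cd63 in each group. Both Cd9 and Cd63 were detected in 61 of 78 wild-type ungated, 88 of 90 wild-type gated, 68 of 90 knockout ungated and 74 of 76 knockout gated cells. Neither was found in 3 and 8 of the ungated cells and in 0 of the gated cells of either genotype.

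**Figure D5:**
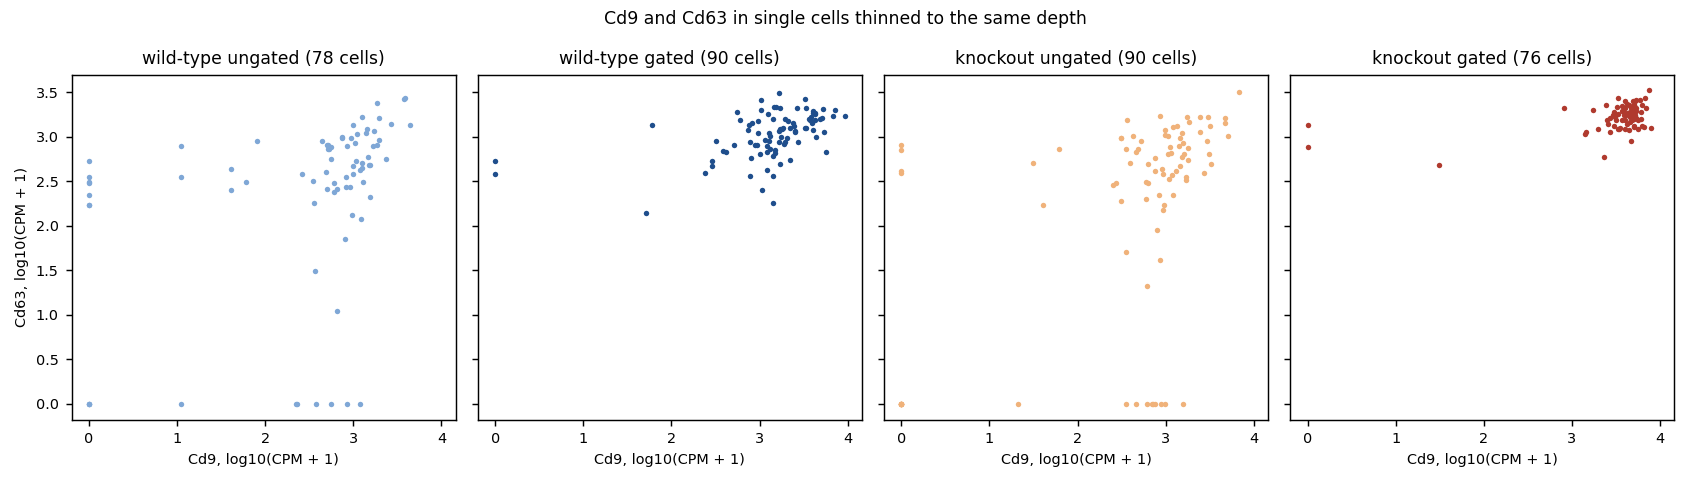
Cd63 against Cd9 in each cell after thinning, as log10(CPM + 1), with 1 panel for each group. The knockout gated cells gather at high values of both genes, and both ungated groups spread to 0 on either axis.

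The ranking took the 2574 other genes detected in at least 25% of thinned cells in every group. Gpnmb and Clec7a fell short of this in both ungated groups and were not ranked. By the lowest of the 4 correlations, the ranked genes most like Cd9 were Ctsl, Cd63, Ctsz, Cyba and Spp1. Ctsl and Ctsz are lysosomal proteases, Cyba a subunit of the phagocyte oxidase and Spp1 the secreted protein osteopontin. Their lowest correlation was between 0.30 and 0.32. Those most like Cd63 were Ftl1, a ferritin subunit, Ctsz, Cd68, a lysosomal membrane protein of macrophages, Cd9 and Spp1, with a lowest correlation between 0.28 and 0.41. Of the other members, Tspan4 ranked 112 for Cd9 and 162 for Cd63, while Cd81 ranked 1860 and 1805.

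The other 21 family genes were few in number of counts: the 10 members held between 90.2% and 94.8% of all tetraspanin counts. Of the 21, 12 were measured. In wild-type gated cells 3 were called higher (Tspan5, Tspan10 and Tspan17) and 1 lower (Upk1b), and in knockout gated cells 3 higher (Tspan10, Tspan17 and Upk1b) and 2 lower (Tspan33 and Rom1). Over all genes measured 15.2% were called higher and 19.9% lower in wild-type gated cells, and 12.4% and 22% in knockout gated cells. These genes were named after their values were seen. Their counts sat in at most 16 cells of the higher group, and Upk1b was in opposite directions in both genotypes. Several calls rested mainly on 1 cell. Such a cell held 95.4% of the Tspan5 counts of wild-type gated and 89.3% of the Upk1b counts of wild-type ungated cells. In knockout brains it held 73.3% of the gated counts of Upk1b and 100% of the ungated counts of Rom1. Tspan10 rested on 257 counts in 1 wild-type gated cell, and on 2353 counts in 16 knockout gated cells against 5 counts in knockout ungated cells. Tspan17 had 0 counts in both ungated groups, and had counts in 7 of 90 wild-type gated and 5 of 76 knockout gated cells. Its log2 gate difference was 4.01 in wild-type and 3.33 in knockout cells. With 3 counts in the ungated group taken as a floor, the ratio of levels was 195.7-fold and 172-fold. A single cell held 42.1% and 34.7% of the gated counts. Without it these ratios were 114.8-fold and 114.1-fold, a setting chosen after seeing the data. The ratios are not lower bounds, since they leave out counting error of the gated level and PCR copies are not separate molecules.

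Of 18 partners of tetraspanins, 14 were measured. In wild-type gated cells 2 were called higher and 0 lower, and in knockout gated cells 6 higher and 1 lower, against 15.2% higher and 19.9% lower, and 12.4% and 22%, over all genes measured. Several of the 6 rested on few cells, and these were named after their values were seen. In knockout gated cells Hbegf was at 3.9 CPM with counts in 5 of 76 cells. Ptgfrn was at 9.19 CPM in 11 cells and Itga4 at 17.9 CPM in 15 cells. For Ifitm3 a single cell held 63.2% of the counts. No enrichment of partners is read from the count of calls. The medians were -0.04 and -0.06 over the measured partners, beside -0.12 and -0.26 over all genes measured. Cd44, a receptor for hyaluronan, was at 0.82, 18.6, 0.12 and 45.2 CPM in the order of the groups above, and the thinned share of cells was 6.67% in wild-type gated and 40.8% in knockout gated cells. A single cell held 52% of the wild-type gated counts. Ifitm2, an interferon-induced membrane protein, was at 11.4, 49.8, 13.6 and 89.9 CPM, which is 4.1-fold and 6.24-fold higher in gated cells. Itgam, the CD11b chain of an integrin used in the sort of all groups, was at 512, 337, 504 and 236 CPM and was 2.13-fold lower in knockout gated cells. The long-known partner Itgb1 was at 341, 237, 386 and 238 CPM, short of 2-fold in either gate comparison.

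Of 22 genes of endosomes and extracellular vesicles, 21 were measured. In wild-type gated cells 2 were called higher (Ap3b1 and Ap3m1) and 0 lower, and in knockout gated cells 3 higher (Flot2, Ap3s1 and Rab35) and 1 lower (Stam), some of them named after their values were seen. The shares over all genes measured were 15.2% higher and 19.9% lower in wild-type and 12.4% and 22% in knockout gated cells. The median log2 difference was 0.35 in wild-type and 0.04 in knockout cells, above the -0.12 and -0.26 of all genes measured. Ap3b1, a subunit of the adaptor that sorts proteins to lysosomes, was at 82.9, 183, 143 and 110 CPM, higher with the gate in wild-type and lower by less than 2-fold in knockout cells. Ap3s1 of the same adaptor was at 34.4, 52.5, 37.3 and 77.5 CPM. Flot2, a scaffold of membrane domains, was at 23.2, 44.6, 16.3 and 50.6 CPM. Sdcbp, the adaptor syntenin that binds Cd63, was at 985, 1380, 1208 and 1738 CPM, with log2 gate differences of 0.49 and 0.52.

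Some counts of members may include reads of neighbours, since the labels do not say whether counting used strand. In GENCODE M21 on mm10, Cd9 (ENSMUSG00000030342.8, chromosome 6, 125460266 to 125494791, minus strand) shares 218 exon bases with the antisense gene Gm26728. Cd81 (ENSMUSG00000037706.17, chromosome 7, 143052739 to 143067934, plus strand) shares 104 with R74862, Cd151 shares 193 with Gm10575, Tspan4 shares 292 with Chid1 and Cd37 shares 13 with Tead2. Cd63 (ENSMUSG00000025351.14, chromosome 10, 128900989 to 128912822, plus strand), Cd53, Cd82, Tspan3 and Tspan7 share none.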

How the data were processed

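Single cells were sorted into plates and made into Smart-seq2 libraries, 1 cell per sample, per the labels' protocols. The data are raw read counts per gene, as the authors deposited them in 1 table. The submitters' processing notes name mm10 as the build, STAR 2.5.3a, HTSeq, Trim Galore 0.4.3 and Picard. The annotation and any use of strand are not stated there. The 92 spike-ins stayed out of library sizes. Groups come from the labels, and cells passed all 3 quality criteria of the labels. There were 0 pairs of cells with identical counts. No passing cell lay under 100000 gene counts, the depth for thinning (seed 1).

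Counts were summed over the cells of a group, with exact Poisson intervals for levels and Clopper-Pearson intervals for shares. Genes at 5 CPM or more in any group were measured. With 1 sample per group no model was fitted. Python 3.11.15, numpy 2.4.6, pandas 2.3.3, scipy 1.17.1 and, for trimmed-mean (TMM) factors only, edgeR 4.0.16 were used, and the computation was tested on simulated data. Exon lengths are from GENCODE M21 and promoter windows from RefSeq.

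The 10 members and all lists were chosen with earlier results of these data known. All members were named, and from each other list up to 4 genes called between gates with at least 20 CPM and detection in 25% of cells of the higher group; others are said to be named after their values were seen or given as background partners. Alternatives were mean CPM per cell, TMM, median-of-ratios and spike-in scaling, thinned cells, other pseudocounts (0.1 and 10 CPM), levels (20 CPM or none) and folds (1.5), all deep cells whatever their quality call, cells matched on detected genes, and leaving out the cell with most counts, cycling cells or cells with border-associated macrophage markers.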

Additional observations from a re-analysis of the deposited data

Results flagged for a closer look

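In 5 cases a member had opposite signs in the 2 settings of a contrast. With 1 sample per group the difference was not tested in any of them. The gate difference of Cd82 was 0.07 in wild-type and -0.63 in knockout cells, which differ by -0.70. That of Tspan3 was -0.03 and 0.07, a difference of 0.11 in log2. The genotype difference of Cd81 was 0.00 (-0.0017) in ungated and 0.16 in gated cells, which differ by 0.16. That of Tspan4 was 0.28 in ungated and -0.23 in gated cells, which differ by -0.51. That of Tspan7 was 0.02 and -0.77, which differ by -0.79.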

How the results depend on the processing

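Of 120 recomputed counts of members called, 109 stayed within 1.5 times the reported count. In wild-type gated cells the members higher were 1 (Cd9) in place of 2 without cycling cells and with cells matched on detected genes. In knockout gated cells 8 were higher with spike-in scaling, and those lower numbered 0 with spike-in scaling, 2 (Cd82 and Tspan7) without cycling cells and 2 at a fold of 1.5. Between gated groups 1 member (Cd9) was higher with spike-in scaling and 1 at a fold of 1.5, and those lower numbered 0 with spike-in scaling, 0 without cells with border-associated macrophage markers and 2 at a fold of 1.5. Apart from the scale shift of the spike-ins (all-gene median 0.98 in the knockout gate), the cause was not tested. Of 480 log2 differences, 1 that was called changed sign: Tspan7 by gate in knockout cells was 0.0094 with spike-in scaling. Of the rest, 177 moved by less than their interval and 302 by more, since counting intervals at this depth are narrow. Cells matched on detected genes numbered 31 to 60 a group. No paired analysis was possible because each group is 1 sample.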
